A study of Mus musculus with 6 samples.

Results

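The mitosis and G2/M genes described here are 35 genes, taken by symbol from the deposited gene count table of 54532 genes. Their products carry a dividing cell from the end of DNA synthesis through chromosome segregation to cytokinesis. All 35 were found once in the table, and all 35 were among the 15015 genes with enough counts to be tested. The samples were fresh cells of femoral bone marrow from mice of genotype WT, and total RNA was sequenced in bulk. The 3 control libraries (BM control, here control 1 to 3) came from mice with no treatment, and the 3 unloaded libraries (BM OP-HU, here unloaded 1 to 3) from mice kept under hindlimb unloading for 4 weeks, which the submitters describe as inducing osteoporosis. The labels do not say whether the libraries of a group came from separate animals, give no age or strain, and do not say whether marrow was pooled, so p-values measure only the spread between these samples.

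Most marrow cells are mature or maturing and no longer divide, and mitotic transcripts come from the dividing precursors of red cells, granulocytes, monocytes and B cells, and from progenitors. These transcripts accumulate late in S phase and in G2, peak at mitosis and are low in resting cells. In resting cells a repressor complex, DREAM, keeps the genes off, and in dividing cells the same core joined by B-Myb (Mybl2) and then FoxM1 turns them on. The complex binds a promoter element called CHR, with the letters TTTGAA, usually close to the start site and often next to CCAAT boxes, which bind the factor NF-Y.

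Those letters were common in the promoters of the members, which is why 8 promoters are shown. RefSeq (GRCm38.p6, the build of mm10) gave a window of 250 bases before to 50 after the start site for 30 of the 35 members, and Ccna2, Cdc25c, Aurkb, Tpx2 and Kif20a had no entry. TTTGAA on either strand was found in 23 of the 30 windows (76.7%), against 17.9% of all 32851 windows. CCAAT on either strand was found in 23 (76.7%), against 37.4%, and neither motif contains the other, although they can share an end base. Within 100 bases before and 50 after the start, TTTGAA was in 73.3% of member windows and 8.01% of all windows. In 21 of the 23 genes with TTTGAA at least 1 copy began between 50 bases before and 45 after the start. The share of all windows with a copy at those positions was not counted. Prc1 and Ect2 had 2 windows each, and the one nearest the deposited gene start was taken. The windows of Kif2c and Kif4 lay 3867 and 328 bases inside the deposited gene start. A match of letters is a description of the window and not a shown binding site.

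The 8 stretches printed run from 120 bases before to 30 after the RefSeq start site, on the strand of the gene, with TTTGAA and CCAAT in capitals in either orientation (TTCAAA and ATTGG are the reverse strand). The first 4 belong to members that were low in the library unloaded 1, as described further on, and the last 4 to members that were not.
Cdk1, chr10:69352883-69353032, minus strand: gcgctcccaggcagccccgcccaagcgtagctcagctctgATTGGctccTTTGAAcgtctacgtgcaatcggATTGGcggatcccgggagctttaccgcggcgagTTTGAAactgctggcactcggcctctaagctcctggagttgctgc
Ccnb1, chr13:100786457-100786606, minus strand: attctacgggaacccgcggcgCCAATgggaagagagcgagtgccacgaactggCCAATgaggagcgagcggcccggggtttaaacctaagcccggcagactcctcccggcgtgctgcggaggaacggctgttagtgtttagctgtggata
Ube2c, chr2:164769809-164769958, plus strand: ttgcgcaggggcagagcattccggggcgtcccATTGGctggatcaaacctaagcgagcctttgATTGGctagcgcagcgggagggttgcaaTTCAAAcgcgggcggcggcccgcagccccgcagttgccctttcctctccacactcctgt
Kif11, chr19:37376262-37376411, plus strand: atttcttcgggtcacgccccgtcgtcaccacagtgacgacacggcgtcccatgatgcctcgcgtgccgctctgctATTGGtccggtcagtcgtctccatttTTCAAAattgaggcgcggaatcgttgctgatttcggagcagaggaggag
Prc1, chr7:80294331-80294480, plus strand: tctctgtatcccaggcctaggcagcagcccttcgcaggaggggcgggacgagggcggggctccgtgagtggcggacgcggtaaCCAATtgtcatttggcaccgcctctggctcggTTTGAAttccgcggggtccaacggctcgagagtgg
Top2a, chr11:99024160-99024309, minus strand: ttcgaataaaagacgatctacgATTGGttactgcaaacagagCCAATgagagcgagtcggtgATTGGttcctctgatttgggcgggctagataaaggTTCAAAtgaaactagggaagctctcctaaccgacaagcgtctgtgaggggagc
Mki67, chr7:135716350-135716499, minus strand: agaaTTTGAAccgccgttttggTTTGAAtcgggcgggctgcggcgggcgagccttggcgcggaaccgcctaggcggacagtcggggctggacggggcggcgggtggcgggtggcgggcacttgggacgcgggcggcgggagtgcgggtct
Birc5, chr11:117849117-117849266, plus strand: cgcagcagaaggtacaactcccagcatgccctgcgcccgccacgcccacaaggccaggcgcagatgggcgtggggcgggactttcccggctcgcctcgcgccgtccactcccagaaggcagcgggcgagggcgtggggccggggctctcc
In these stretches Cdk1 had 2 copies of each motif, Top2a 1 TTTGAA and 3 CCAAT, and Birc5 neither. Within the printed stretch Mki67 had 2 TTTGAA and no CCAAT, while Ccnb1 had 2 CCAAT and no TTTGAA. The longer window counted above held 3 CCAAT for Mki67, all farther before the start than the printed stretch reaches. For Ccnb1 that window held the same 2 CCAAT and no TTTGAA.

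Libraries held 15850986 to 17775506 counts, and markers of marrow were abundant, such as the granule gene Ngp at 12280 CPM (counts scaled to a common library size) and the promyelocyte enzyme gene Mpo at 3310 CPM in controls. The library unloaded 1 stood apart. Its score on the first principal component, with 34.6% of the variance, was 51.1, and the scores of the remaining libraries ran from -13.8 to -7.32. The mitochondrial share of its counts was 0.439%, against 1.05% to 1.27% elsewhere. Printed fold changes, medians and counts of signs that turned, or moved by more than 1.5-fold, when this library was left out are also given without it.

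No difference between unloaded and control marrow was detectable for any of the 35 mitotic genes. Their summed level was 5579 ± 194 CPM (SD, n = 3) in controls and 5611 ± 361 CPM in unloaded marrow, and they took 0.516% to 0.586% of the counts of a library. Without the 2 most abundant members, Mki67 and Top2a, the other 33 summed to 3794 ± 54.1 CPM in controls and 3721 ± 415 CPM in unloaded marrow. Unloaded 1 was at 3268 CPM in that sum. By edgeR's quasi-likelihood test 0 of the 35 members were called at an adjusted p under 0.05, where 0% of all 15015 tested genes were called. The smallest adjusted p of a member was 0.89. At an unadjusted p under 0.05 there were 0 members, against 5.85% of all tested genes (2.67% higher and 3.18% lower). DESeq2, which called 0.233% of all tested genes, and limma-voom also gave 0 members at either threshold, and edgeR without control 3 gave 1 member at an unadjusted p under 0.05 and 0 called. A negative log2 fold change was found in 23 members (48.8% of all tested genes) and a positive one in 12 (34.3% of the members, 51.2% of all tested genes), but with upper-quartile scaling 17 were negative and 18 positive. All unloaded values lay above all controls for 2 members (5.46% of all tested genes) and below them for 0 (6.4%). The median log2 fold change was -0.0084 over the members and 0.0054 over all tested genes.

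The precision bounds what could have been missed. Each member had between 236 and 21237 counts per library, and the 95% interval of the log2 fold change included 0 for all 35. For 34 members this interval stayed within 1.5-fold in either direction, the exception being Cdc25c. The lowest bound was -0.50 for Ect2, a ratio of 0.706, and the highest 0.73 for Cdc25c, a ratio of 1.66. The median size of the log2 fold change, disregarding its sign, was 0.0395 over the members, 0.134 over all tested genes and 0.0924 over the 7690 genes above the level of the lowest member. In bulk marrow fewer dividing cells and less RNA per dividing cell cannot be told apart.

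**Figure D1:**
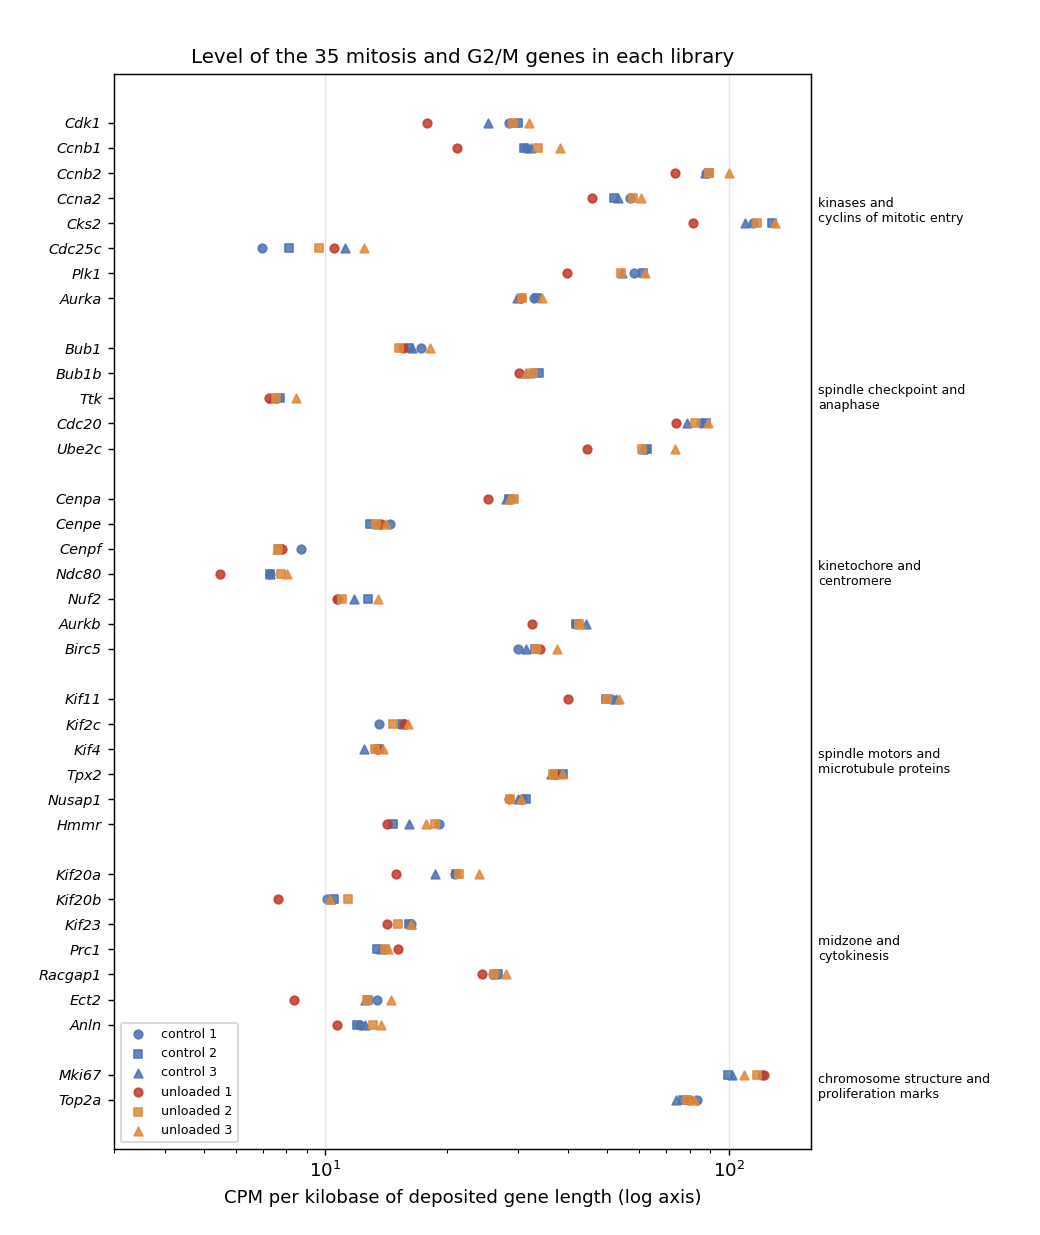
Level of each of the 35 members in the 6 libraries, as CPM per kilobase of the deposited gene length on a log axis, grouped by role, with blue for controls, red for unloaded 1 and orange for unloaded 2 and 3. Cks2 and Mki67 lie at the top near 114 and 112, Ndc80 and Ttk at the bottom near 7.19 and 7.66, and differences between genes are far larger than those between libraries.

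Differences in level among the members were large beside those between the groups. Scaled per kilobase, the means over the 6 libraries ran from 7.19 CPM per kilobase for Ndc80 to 114 for Cks2. Mki67 (112), the cyclin gene Ccnb2 (87.9), Cdc20 (82.8) and Top2a (79.1) followed Cks2. The per-library ranges of Cks2 and Mki67 overlapped, and so did those of Ccnb2, Cdc20 and Top2a, so their order does not exceed the spread. The range of Cks2 also overlapped those of Ccnb2, Cdc20 and Top2a, and the range of Mki67 that of Ccnb2. The deposited length covers more sequence than a single transcript of some genes, and with the longest transcript as length 9 of the 10 highest members were again among the 10 highest, but Top2a came first and Cks2 second. Without any length scaling only 6 of the 10 were, and Mki67 and Top2a alone then took 30.8% to 37.3% of the summed CPM of the members.

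Mki67 and Top2a mark chromosomes of cycling cells. Mki67 (ENSMUSG00000031004, mm10 chromosome 7, 135689784 to 135716361) encodes Ki-67, a protein that coats mitotic chromosomes and is absent from resting cells. It stood at 1215, 1004 and 1026 CPM in the controls and at 1227, 1180 and 1098 CPM in the unloaded libraries. Control 1 was as high as the unloaded libraries, so the groups overlapped (log2 fold change 0.11 ± 0.11, SE; edgeR adjusted p = 0.924). Top2a encodes topoisomerase II alpha, which untangles sister chromatids. It was at 752, 694 and 666 CPM in the controls and 718, 709.7 and 737 CPM after unloading, which lies inside the control range (log2 fold change 0.04 ± 0.10; adjusted p = 0.974).

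Kinases and cyclins of mitotic entry showed the widest spread within the unloaded group. Cdk1 is the kinase that drives entry into mitosis, cyclins A2, B1 and B2 (Ccna2, Ccnb1, Ccnb2) activate it, Cks2 is its small docking subunit, and the phosphatase Cdc25c removes its inhibitory phosphates. Fold changes were positive for 2 and negative for 6 of these 8 genes (median -0.018), and 0 passed the test. Without unloaded 1 all 8 were positive (median 0.12). Cdk1 (ENSMUSG00000019942, chromosome 10, 69335146 to 69352938) was at 141, 148 and 125 CPM in the controls and at 88.2, 144 and 158 CPM in unloaded 1, 2 and 3. The unloaded values lay on both sides of the controls (log2 fold change -0.09 ± 0.18; adjusted p = 0.965; 0.13 without unloaded 1). Ccnb1 had the same shape, with 133, 131 and 137 CPM in the controls and 89.2, 142 and 161 CPM after unloading. Its log2 fold change was -0.03 ± 0.18, and 0.19 without unloaded 1, with the smallest unadjusted p of the members in that fit (0.053; edgeR adjusted p = 0.561).

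Cks2, with the highest level per deposited length, was at 79.5, 88.5 and 76.1 CPM in the controls and 56.4, 81.4 and 90.3 CPM after unloading. Unloaded 1 was again the lowest and unloaded 3 the highest library, and the log2 fold change was -0.10 ± 0.16 (0.08 without unloaded 1). Ccnb2 and Ccna2 repeated this order, with unloaded 1 at 113 and 188 CPM and unloaded 3 at 154 and 248 CPM. Plk1, a kinase of centrosome maturation and mitotic exit, was at 128, 134 and 119 CPM in the controls and 87.4, 119 and 136 CPM after unloading. It had the lowest log2 fold change of the members, -0.16 ± 0.15 (adjusted p = 0.924), which was 0.0035 without unloaded 1. Aurka, the kinase of spindle poles, hardly varied, with 75.8 to 84.8 CPM in controls and 77.1 to 87.3 CPM after unloading. Cdc25c was the least abundant member at 13.5, 15.7 and 21.7 CPM in the controls and 20.4, 18.7 and 24.2 CPM after unloading. Its log2 fold change of 0.31 ± 0.19 was the highest of the members, with the groups overlapping because control 3 lay above unloaded 1 and 2 (unadjusted p = 0.126; edgeR adjusted p = 0.89). That value was 0.53 without control 3, 0.17 without control 1 and 0.20 without unloaded 3.

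Genes of the spindle checkpoint and of anaphase had log2 fold changes between -0.06 and 0.03, 4 negative and 1 positive (median -0.04). Without unloaded 1 there were 1 negative and 4 positive (median 0.03). Bub1, BubR1 (Bub1b) and the kinase Mps1 (Ttk) hold cells before anaphase until every chromosome is attached. Cdc20 and the ubiquitin-conjugating enzyme Ube2c then serve the anaphase-promoting complex, which destroys cyclin B. Cdc20 (ENSMUSG00000006398, chromosome 4, 118432901 to 118437352) was at 159, 164 and 147 CPM in the controls and 138, 154 and 166 CPM after unloading. Bub1b, with the smallest p of this group, was at 139.8, 145 and 134 CPM and at 129, 140.0 and 135 CPM (log2 fold change -0.05 ± 0.10; adjusted p = 0.959; -0.02 without unloaded 1). These values overlapped, whereas Ube2c spread from 116 CPM in unloaded 1 to 191 CPM in unloaded 3 around controls at 159 to 163 CPM. Bub1 and Ttk had means of 72.2 and 37.2 CPM in controls and 71.2 and 38.1 CPM after unloading.

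**Figure D2:**
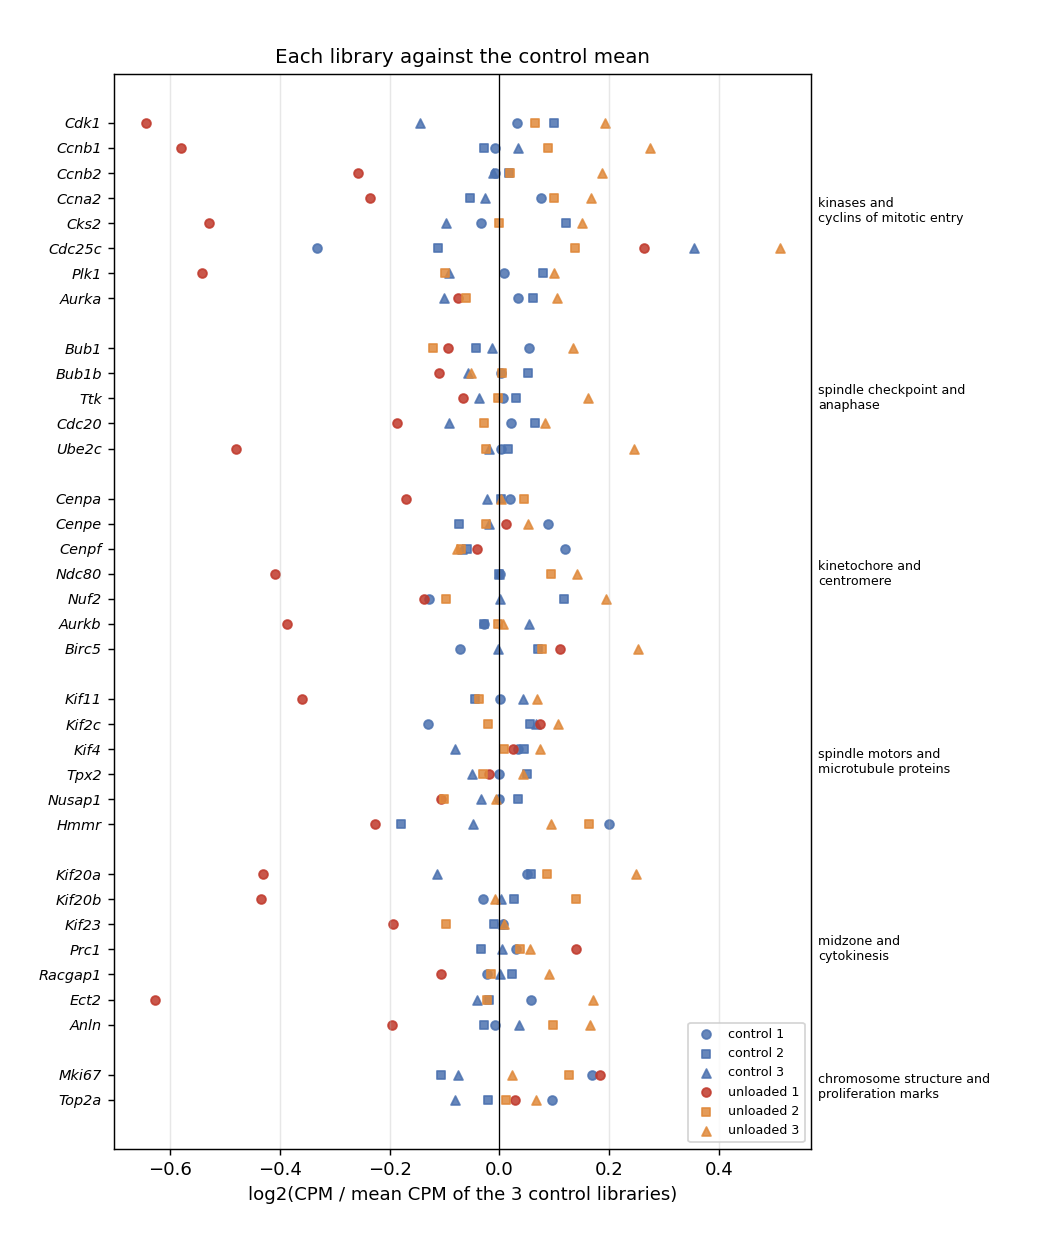
Each library of each member as log2 of its CPM over the control mean, with controls in blue, unloaded 1 in red and unloaded 2 and 3 in orange. Unloaded 1 is the lowest library for 23 members, with Cdk1, Ect2 and Ccnb1 farthest to the left. It lies above the control mean for Mki67, Top2a, Prc1, Birc5, Cdc25c, Kif2c, Kif4 and Cenpe.

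Kinetochore and centromere genes included 1 of the 2 members whose groups did not overlap. Cenpa is the histone that marks centromeres, Cenpe and Cenpf are large kinetochore proteins, and Ndc80 and Nuf2 form the arm of the kinetochore that grips microtubules. Aurkb and survivin (Birc5) belong to the chromosomal passenger complex, which corrects wrong attachments. Birc5 (ENSMUSG00000017716, chromosome 11, 117849251 to 117855743) was at 102, 112 and 107 CPM in the controls and 116, 113 and 128 CPM after unloading. All 3 unloaded values were above all 3 controls, narrowly so for unloaded 2. The log2 fold change was 0.15 ± 0.10, with a 95% interval of -0.07 to 0.37 and an adjusted p of 0.896. Its partner Aurkb was at 123, 123 and 130.1 CPM in the controls and 95.8, 125 and 126 CPM after unloading (log2 fold change -0.12 ± 0.12, 0.0018 without unloaded 1). Birc5 and Aurkb thus differed in unloaded 1, where Birc5 was among the higher libraries and Aurkb at its lowest.

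Ndc80 and Nuf2 pair in 1 complex and had per-length levels of 7.19 and 11.8 CPM per kilobase. Ndc80 was nearly the same in the controls, at 47.3 CPM in each, and at 35.6, 50.4 and 52.2 CPM after unloading. Nuf2 was at 68.3, 81.1 and 74.7 CPM and at 67.9, 69.8 and 85.5 CPM, with full overlap. Cenpa was at 164 to 169 CPM in the controls and at 148, 172 and 167 CPM after unloading. Cenpe and Cenpf overlapped, with log2 fold changes of 0.01 ± 0.10 and -0.06 ± 0.10. Of the 7 genes in this group 5 had a negative and 2 a positive fold change, against 1 and 6 without unloaded 1, and 0 passed the test in either fit.

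Spindle motors and microtubule proteins had 3 positive and 3 negative fold changes (median 0.0087), and 5 and 1 without unloaded 1 (median 0.03). Kif11 is the motor that pushes the spindle poles apart, Kif2c takes microtubules apart at centromeres, and Kif4 moves on chromosome arms. Tpx2, Nusap1 and Hmmr nucleate or bundle spindle microtubules. Kif11 (ENSMUSG00000012443, chromosome 19, 37376403 to 37421859) had the highest per-length level of these and also the smallest p. It was at 247, 239 and 254 CPM in the controls and 192, 240.1 and 258 CPM after unloading (log2 fold change -0.10 ± 0.12; adjusted p = 0.935; 0.02 without unloaded 1), with unloaded 1 below the others. Tpx2, Kif4 and Kif2c did not share that low value. Tpx2 was at 170 to 182 CPM in the controls and at 173, 172 and 181 CPM after unloading. Nusap1 and Hmmr had log2 fold changes of -0.07 ± 0.09 and 0.02 ± 0.14, the latter 0.13 without unloaded 1.

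Midzone and cytokinesis genes held the other member whose groups did not overlap. Prc1 bundles the antiparallel microtubules of the midzone, Kif23 and Racgap1 form centralspindlin, Ect2 switches on RhoA at the cleavage furrow, and anillin (Anln) scaffolds the contractile ring. Prc1 (ENSMUSG00000038943, chromosome 7, 80294450 to 80316259) was at 115, 110.3 and 113 CPM in the controls and 124, 116 and 117 CPM after unloading. The unloaded values were all above the controls by a small step (log2 fold change 0.08 ± 0.09; adjusted p = 0.935; 0.05 without unloaded 1). Racgap1, the most abundant per length of this group, was at 184, 189.8 and 187 CPM and at 173, 185 and 199 CPM. Its partner Kif23 was at 129, 127 and 129 CPM in the controls and 112, 119.9 and 129 CPM after unloading, a log2 fold change of -0.09 ± 0.10 (adjusted p = 0.927; -0.04 without unloaded 1). Both pairs of values overlapped between the groups. Ect2 was at 72.3, 68.6 and 67.6 CPM in the controls and 44.99, 68.4 and 78.3 CPM after unloading, with unloaded 1 far below the rest. Kif20a and Kif20b, kinesins of the midzone, and Anln also had their lowest value in unloaded 1, at 56.8, 53.1 and 96.8 CPM. Of the 7 genes 2 had a positive and 5 a negative fold change, against 6 and 1 without unloaded 1, and 0 passed the test in either fit.

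**Figure D3:**
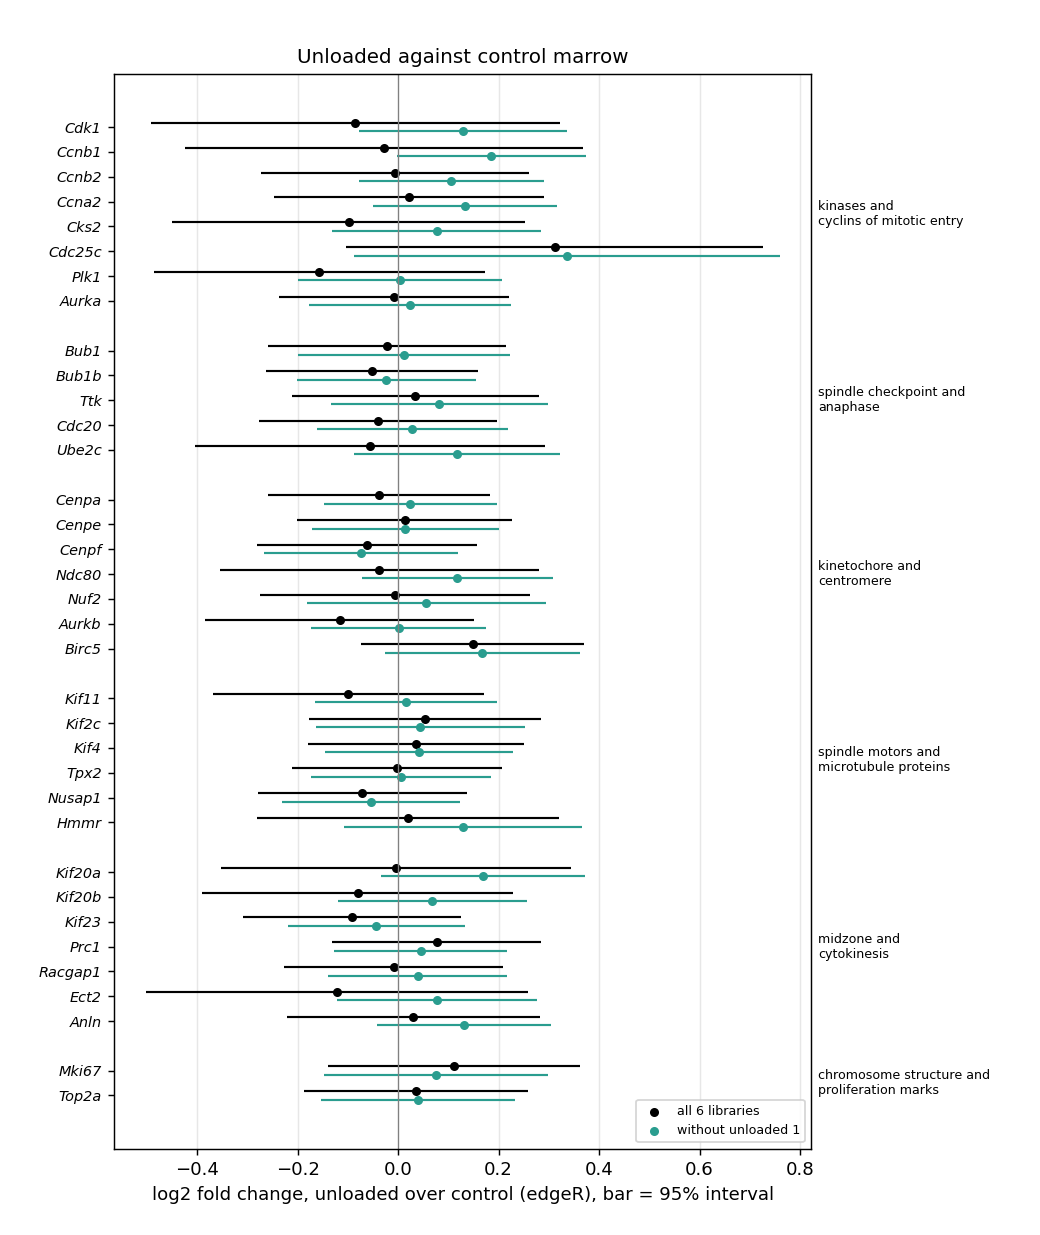
Log2 fold change of unloaded over control for each member by edgeR with its 95% interval, from all 6 libraries in black and without unloaded 1 in green. Every black interval includes 0, and without unloaded 1 31 of the 35 points lie to the right of 0 while their intervals still include it.

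Leaving out unloaded 1 turned the balance of signs. Without it 31 members had a positive fold change and 4 a negative one, where 50.5% of all 15438 genes then tested were positive and 49.5% negative. The median was 0.045 over the members and 0.0027 over all genes. With that library left out, 0 members passed edgeR's test (smallest adjusted p 0.561), against 0.0324% of all genes, and 0 were at an unadjusted p under 0.05, against 8.98% of all genes. The summed level of the members was 5700 CPM in unloaded 2 and 5919 CPM in unloaded 3, and the controls were at 5797, 5518 and 5424 CPM. Unloaded 3 was the highest library for 23 members, and without it the count was 7 positive and 28 negative. The sign of the members as a set therefore moved with single libraries.

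Within unloaded 1 the mitotic genes were low unevenly. Measured as log2 CPM minus the mean of the other 5 libraries, the members there had a median of -0.18 and ran from -0.69 for Cdk1 to 0.16 for Mki67. Over all tested genes the median in that library was 0.0039. More than 0.25 lower in unloaded 1 were 14 of the 35 members (40%), against 26.7% of all tested genes, and 0 members were more than 0.25 higher, against 27.2%. The 6 lowest were Cdk1 (-0.69), Ect2 (-0.66), Ccnb1 (-0.65), Cks2 (-0.56), Plk1 (-0.54) and Ube2c (-0.52). Mki67 (0.16), Cdc25c (0.15), Prc1 (0.12), Kif2c (0.06), Birc5 (0.04), Top2a (0.01), Kif4 (0.01) and Cenpe (0.01) lay above the mean of the other 5 libraries, though only Mki67 and Prc1 were at their highest there. These genes were named after their values were seen. Over the 6 libraries, which share 1 scaling, the Pearson coefficient of each member's log2 CPM with the mean of the other members ran from -0.61 for Prc1 to 0.99 for Ccnb2, and Mki67 had -0.43. The ratio of Ccnb1 to Mki67 CPM was 0.0727 in unloaded 1 and 0.109 to 0.147 in the others, and that of Cdk1 to Mki67 0.0719 against 0.116 to 0.147.

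**Figure D4:**
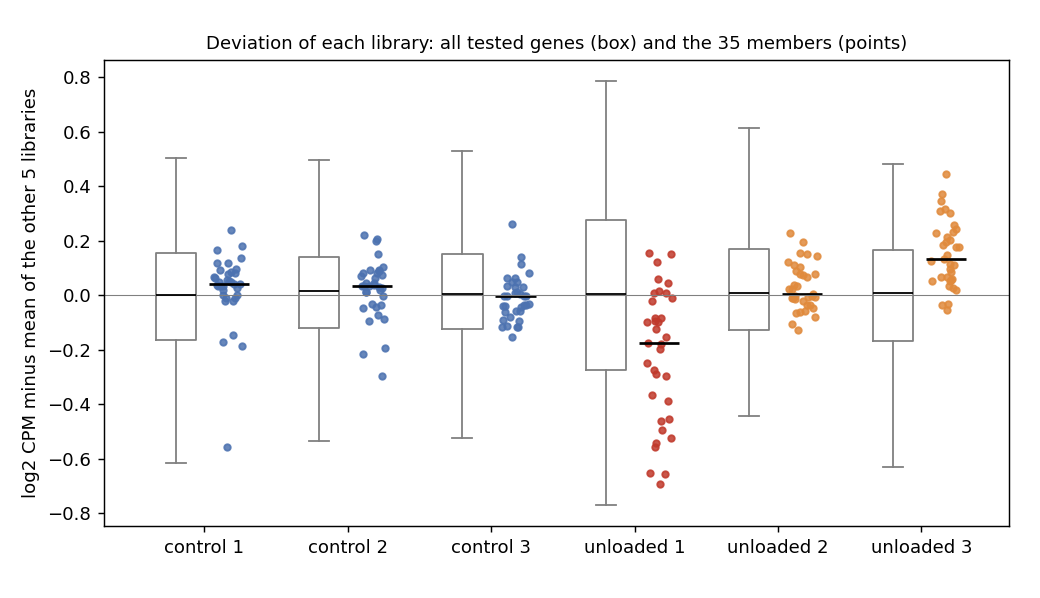
Deviation of each library from the mean of the other 5 in log2 CPM, with a box for all 15015 tested genes (quartiles, whiskers at the 5th and 95th percentiles) and points for the 35 members with their median as a bar. The members of unloaded 1 spread from -0.69 to 0.16 around a median of -0.18, and those of unloaded 3 sit around 0.13.

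Properties of the genes were set beside this pattern as descriptions. Over the 35 members the Spearman coefficient of the deviation in unloaded 1 was -0.038 with transcript GC content, 0.3 with deposited gene length and -0.011 with mean CPM. Members share these libraries and are not independent. Over all tested genes the coefficient with GC content was 0.34, and the members had a median GC content of 46.1% against 49.4% for all tested genes. After removal of each library's GC trend, 16 members had a positive and 19 a negative fold change (median -0.00099). TTTGAA was found in 9 of the 11 windows of members more than 0.25 lower in unloaded 1 (81.8%), and in 14 of the 19 windows of the other members (73.7%). CCAAT was found in the same numbers of windows, 9 and 14.

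The other genes of the pathway were taken from lists of textbook members. Of 77 other mitosis genes 39 lay above 0 and 38 below in log2 fold change (median 0.00033), with 0 past the test. The 4 with the smallest p were Wee1, Kif14, Cenpi and Nek2. Wee1, the kinase that holds Cdk1 inactive, was at 62.2, 64.0 and 61.1 CPM in the controls and 37.5, 55.7 and 50.6 CPM after unloading. Its groups did not overlap (log2 fold change -0.38 ± 0.14; unadjusted p = 0.0214; edgeR adjusted p = 0.804), and the value was -0.23 without unloaded 1. Kif14, a kinesin of cytokinesis, was at 65.5, 63.4 and 68.2 CPM and at 76.1, 76.5 and 78.1 CPM (log2 fold change 0.23 ± 0.10; adjusted p = 0.809). The centromere gene Cenpi had 0.29 ± 0.13 and the centrosome kinase gene Nek2 -0.24 ± 0.15, which was -0.09 without unloaded 1. Of 43 replication and S phase genes 22 were positive and 21 negative, with a median of 0.0070 and 0 past the test. Their smallest p belonged to Gins2, Ccne1, Fen1 and Pold1, with log2 fold changes of -0.31, 0.18, -0.34 and 0.19. Without unloaded 1 Gins2 was at -0.16 and Pold1 at 0.04. Without unloaded 1, 57 of the other mitosis genes were positive and 20 negative (median 0.056), and 37 and 6 of the S phase genes (median 0.055).

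Among 22 regulators of G2/M transcription 8 were positive and 14 negative (median -0.05), and 0 passed the test. Without unloaded 1 there were 12 positive and 10 negative (median 0.02). Mybl2, which encodes B-Myb, was at 87.0, 94.6 and 87.3 CPM in the controls and 105, 97.1 and 97.7 CPM after unloading. The unloaded values were all above the controls (log2 fold change 0.16 ± 0.10; edgeR adjusted p = 0.896). Foxm1 was at 136.6 ± 11.7 CPM in the controls and 127 ± 8.05 CPM after unloading (SD, n = 3), with overlap (log2 fold change -0.10 ± 0.11; adjusted p = 0.924). In unloaded 1 Mybl2 was at its highest and Foxm1 within the control range. Rbl2, which encodes the p130 subunit of DREAM, was at 79.5, 76.0 and 77.1 CPM in the controls and 55.0, 63.7 and 64.3 CPM after unloading, without overlap. Its log2 fold change was -0.35 ± 0.10 and its edgeR adjusted p 0.726 (unadjusted p = 0.00715). E2f3 and Lin52 had -0.24 ± 0.16 and -0.27 ± 0.24, and -0.08 and -0.06 without unloaded 1.

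Of 14 tested genes that restrain the cycle 3 had a positive and 11 a negative fold change (median -0.16), and 0 passed the test. At an edgeR unadjusted p under 0.05 there were 2 higher and 2 lower, against 5.85% of all tested genes. Cdkn1a, which encodes the kinase inhibitor p21, was at 12.9, 10.8 and 8.81 CPM in the controls and 27.0, 13.02 and 15.4 CPM after unloading. Unloaded 2 was only just above control 1, and the log2 fold change was 0.77 ± 0.26 (unadjusted p = 0.0142; edgeR adjusted p = 0.801), or 0.39 without unloaded 1. Gadd45g, a stress-induced growth arrest gene, was at 33.4 to 35.3 CPM in the controls and 67.7, 36.5 and 40.1 CPM after unloading (log2 fold change 0.47 ± 0.20, 0.15 without unloaded 1). Ccng2 and the antiproliferative gene Btg2 had -0.34 ± 0.13 and -0.42 ± 0.17. In unloaded 1 Cdkn1a was 1.17 and Gadd45g 0.91 above the other 5 libraries in log2 CPM, beside the low Cdk1, Ccnb1 and Plk1. Ccng2 (-0.49) and Btg2 (-0.46) went the other way there, as did the Cdk1 inhibitor gene Wee1 (-0.64). The median deviation of the 14 genes in unloaded 1 was -0.124. Whether these values bear on each other was not tested.

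**Figure D5:**
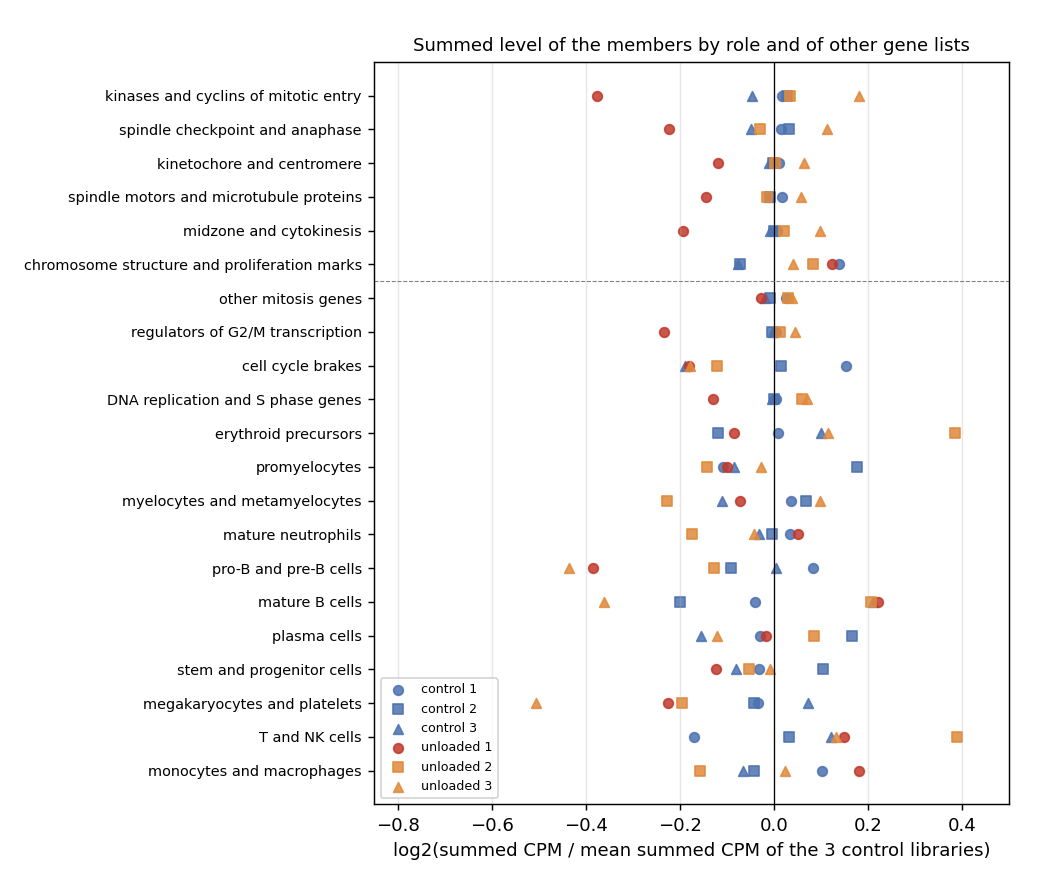
Summed CPM of each role group of the members (above the dashed line) and of other gene lists (below it) in each library, as log2 over the control mean. Unloaded 1 (red) is the lowest library for 5 of the 6 role groups. It is also the lowest for the other mitosis genes, the regulators, the S phase genes and the stem and progenitor markers. The groups overlap for 8 of the 11 cell type lists drawn, the osteoblast and stroma list being left out.

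Marker lists of the dividing precursors of marrow are given beside the members. Summed erythroid precursor markers, 15 genes led by Slc4a1 and Tfrc, ran from 2370 to 2759 CPM in the controls and from 2425 to 3362 CPM after unloading. Of these 12 had a positive fold change (median 0.11), and all 15 did without unloaded 1 (median 0.26). Over all tested genes 51.2% were positive, and 50.5% without unloaded 1. Promyelocyte markers, 11 genes led by Mpo and Elane, ran from 7177 to 8750 CPM and from 7013 to 7596 CPM, with 2 positive, and 6 without unloaded 1. The pro-B and pre-B list, 17 markers led by Myb and Cd79a, ran from 1159 to 1308 CPM in controls and from 913 to 1131 CPM after unloading, without overlap. Among these 14 were negative (median -0.25), against 48.8% of all tested genes. Of the 14, 7 were at an edgeR unadjusted p under 0.05, against 5.85% of all tested genes, and 0 past the adjusted threshold. The leading genes of this list moved apart in unloaded 1. Myb was at its lowest there (177 CPM, against 262 to 274 CPM elsewhere) and Cd79a at its highest (169 CPM, as in control 3). How particular each gene is to pro-B and pre-B cells was not tested. Stem and progenitor markers ran from 863 to 981 CPM and from 837 to 907 CPM, with 1 of 11 positive, and 2 without unloaded 1.

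Other cell types, dividing or not, were measured in the same way. Mature neutrophil markers, led by Mmp9 and Retnlg, ran from 8527 to 8925 CPM in the controls and from 7729 to 9032 CPM after unloading, and myelocyte markers led by Ngp and Ltf from 42580 to 48170 CPM and from 39260 to 49160 CPM. Of these 4 of 15 and 4 of 12 were positive, against 51.2% of all tested genes. Monocyte and macrophage (6 of 12 positive), plasma cell (4 of 8) and mature B cell (6 of 8) markers also overlapped between the groups. Without unloaded 1, 2 of 12 monocyte and 4 of 8 mature B cell markers were positive. Markers of T and NK cells ran from 146 to 178 CPM and from 180 to 215 CPM, just without overlap, with 11 of 12 positive (median 0.36). Of these 3 were at an edgeR unadjusted p under 0.05, against 5.85% of all tested genes, and 0 past the adjusted threshold. Nkg7 held a large part of the T and NK sums, at 74.2 to 93.9 CPM in controls and 74.0 to 91.35 CPM after unloading. Its log2 fold change was -0.01, and without it unloaded 3 lies below control 3, so the groups then overlap. Megakaryocyte and platelet markers ran from 191 to 207 CPM and from 138 to 172 CPM, without overlap, with 10 of 11 negative (median -0.63). Among those, 6 were at an edgeR unadjusted p under 0.05, against 5.85% of all tested genes, and 0 past the adjusted threshold. Without unloaded 1 all 11 were negative (median -0.43). Osteoblast and stroma markers, led by Col1a1 and Col1a2, ran from 108 to 250.4 CPM and from 78.1 to 166 CPM, with 3 of 7 positive. Procr, Gp1bb and Sp7 had too few counts to be tested, Nkg7 is in the promyelocyte and the T and NK lists, and Csf1r in the mature neutrophil and the monocyte lists. In unloaded 1 the median deviation was -0.35 for the erythroid precursor list, -0.36 for stem and progenitor markers and -0.69 for megakaryocyte markers. It was -0.16 for promyelocyte markers and -0.285 for the pro-B and pre-B list. Within the erythroid list Tfrc was at -0.53 there and Slc4a1 at 0.06. The monocyte and macrophage list was at 0.28 and the mature neutrophil list at 0.12 in that library. The part of these cells in the levels of the members was not tested.

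Among 12322 tested protein-coding genes outside the mitosis, regulator and replication lists, those whose log2 CPM followed the mean of the 35 members most closely over the 6 libraries were Clpx, Stoml2, Tmx1, Cd47 and Kif3b. Each of the 5 was lowest in unloaded 1 and highest in unloaded 3. Cd47, a surface signal that limits uptake by macrophages, was at 455, 458 and 434 CPM in the controls and 347, 454 and 503 CPM after unloading. Tmx1, a thioredoxin-like protein of the endoplasmic reticulum, was at 90.9, 90.0 and 89.9 CPM and at 68.7, 94.8 and 107 CPM. Likeness was ranked by Pearson's coefficient, from 0.993 to 0.996, over libraries that share 1 scaling, and it is a description that rests on unloaded 1 and unloaded 3.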

How the data were processed

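RNA-seq libraries from femoral bone marrow of 3 control and 3 unloaded mouse samples were grouped by their titles. Per the labels' protocols RNA was extracted with TRNzol, and the NEBNext Ultra RNA kit was used for the libraries. Per the submitters' processing notes the tools were CASAVA, HISAT2 2.0.5 and featureCounts 1.5.0-p3, with the build mm10. For the annotation release, the strand setting and multiply aligned reads the answer is: not given in the sources used here. The deposited values are raw counts per gene, and the deposited gene length was used as the authors gave it.

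Genes were kept by edgeR's filterByExpr, scaled with TMM factors (0.9844 to 1.028) and compared with edgeR 4.0.16 (glmQLFit, glmQLFTest) in R 4.3.3, with Benjamini-Hochberg adjustment over 15015 genes and a threshold of 0.05. Standard errors are the size of the log2 fold change divided by the root of its F statistic. Intervals use the total degrees of freedom of edgeR's test, which are the residual ones plus those gained by sharing information across genes. Levels are TMM-normalized CPM, and log2 CPM used a prior count of 2. Alternatives used DESeq2 1.42.0 and limma 3.58.1. Fits were tested on simulated data. All pairs of libraries differed by more than sampling noise (chi-square per degree of freedom 7.2 to 38.3 over 15 pairs). The depth of 236 or more counts per member and library leaves the spread between libraries, which edgeR estimates partly from all genes, as the main error. GC content came from the longest GENCODE M21 transcript of each gene, known for 99.92% of tested genes.

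The 35 members, the other lists and the rule for named genes were chosen with earlier results of these data known. All members are named. Values in every library are given for the member highest per length and the one with the smallest p in each role group, for members whose groups do not overlap, and for some members and pathway genes singled out after their values were seen. Of each other pathway list the 4 genes with the smallest p are named, and Foxm1 and Mybl2 in every case. Of each cell type list the most abundant genes are named. No set test was run.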

Additional observations from a re-analysis of the deposited data

How the results depend on the processing

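No member was called under any of the 19 alternatives. The number of all genes called was 0 by edgeR with all libraries. It was 35 with DESeq2, 8 with limma-voom with library weights, 183 without a low-count filter and 1 (Stfa1) with the replicate number as a block. Leaving out 1 library gave 0 to 5 called genes, the 5 being Fam129c, Myl4, Stfa1, BC100530 and Igkv10-94 without unloaded 1. Members with a positive fold change numbered 12 with all libraries, and 7 to 31 with 1 library left out, while negative ones numbered 23, and 4 to 28. With library weights in limma-voom they numbered 26 and 9. Of the alternatives chosen after seeing the data, DESeq2 without unloaded 1 called 67 genes, with 30 positive and 5 negative members, and removal of the GC trend without unloaded 1 called 5 genes, with 26 and 9. Robust edgeR called 0 genes and left 12 and 23. The cause of these shifts was not tested. The median over the members ran from -0.0695 without unloaded 3 to 0.0454 without unloaded 1. The sign of 28 members changed in at least 1 alternative. The sign of 7 held in all, namely Cdc25c, Birc5, Prc1 and Mki67 as positive and Bub1b, Nusap1 and Kif23 as negative.

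The labels do not say whether equal replicate numbers mark paired samples. Deviations of same-numbered control and unloaded libraries correlated across genes at 0.0301, -0.0623 and 0.0184, and those of other control and unloaded libraries at -0.0875 to 0.0932. So few values cannot show whether the samples were paired. With the block 12 members were positive and 23 negative, as without it. A balanced block leaves the fold changes nearly the same in either case, so these counts do not bear on pairing. The spread between libraries, not the depth of at least 236 counts per member, sets the width of the intervals given above. edgeR estimates that spread partly from all genes, so the width is not that of a member's own values alone.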
